A study of Rattus norvegicus with 4 samples.

Results

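Abca1, Abcg1, Apoe, Nr1h3, Mylip, Hmgcs1, Srebf2 and Lpl are genes of cholesterol efflux, cholesterol sensing and lipid handling. They are 8 of the 23999 genes listed in each file and were matched by symbol. The set was proposed after injected and uninjected libraries of these same data had been compared. The injected against uninjected values of the 8 genes are therefore given as a description, with no test. By their known roles the genes cover more than efflux. Hmgcs1 and Srebf2 belong to cholesterol synthesis and Lpl to triglyceride breakdown. The data are 4 single-cell RNA libraries, made with the droplet method of 10x Genomics from skin of rats with healing wounds, sampled on day 4. The 2 injected libraries came from rats given purified migrasomes, large vesicles that form on the trailing fibres of migrating cells. For the 2 uninjected libraries nothing was given. An effect of the injection as such and an effect of the migrasomes therefore cannot be told apart. The sources used here do not state the strain, sex or age of the rats, the origin and dose of the migrasomes, or whether each library came from its own animal. The p-values below therefore measure only how these libraries vary, and part of that may be technical.

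Cells cannot break down cholesterol and must export what they do not need. Nr1h3 encodes the liver X receptor LXRα, a nuclear receptor that is switched on by oxidised cholesterol and then raises transcription of Abca1, Abcg1, Apoe and Mylip. Abca1 and Abcg1 are membrane transporters that load cholesterol onto lipoprotein particles, apolipoprotein E carries it in such particles, and Mylip (also called Idol) marks the LDL receptor for degradation. Srebf2 encodes SREBP2, which is activated when cholesterol is low and drives synthesis and uptake, and Hmgcs1 is an early enzyme of that synthesis. Lipoprotein lipase, the product of Lpl, releases fatty acids from triglyceride-rich particles. In wounds, macrophages take up dying cells and have to handle the cholesterol of their membranes.

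The promoters of Abca1 and Srebf2 are shown because these genes stand for the efflux side and the synthesis side, and macrophage-like cells were highest for Abca1 and lowest for Srebf2 below. The sequences are from RefSeq on build GRCr8, and each shows the 250 bases before the annotated transcription start, read 5′ to 3′ along the gene. The Abca1 stretch is chr5:72596474-72596723 on the minus strand, and the Srebf2 stretch is chr7:115543057-115543306 on the plus strand. Capitals mark matches to 3 motifs that were searched on both strands and did not overlap each other here. In Abca1 the first run of capitals is an E-box and the second an LXR element, and in Srebf2 the run is the core of a sterol regulatory element.
Abca1: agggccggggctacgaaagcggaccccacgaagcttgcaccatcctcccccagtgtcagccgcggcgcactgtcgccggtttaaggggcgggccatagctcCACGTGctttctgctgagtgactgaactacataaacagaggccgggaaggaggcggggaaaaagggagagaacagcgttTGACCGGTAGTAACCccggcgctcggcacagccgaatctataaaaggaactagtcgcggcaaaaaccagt
Srebf2: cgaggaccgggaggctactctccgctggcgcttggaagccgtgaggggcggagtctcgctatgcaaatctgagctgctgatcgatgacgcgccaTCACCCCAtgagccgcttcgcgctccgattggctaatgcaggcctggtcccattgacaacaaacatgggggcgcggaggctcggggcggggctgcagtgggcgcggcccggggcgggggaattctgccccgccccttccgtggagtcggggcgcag
The LXR element was searched as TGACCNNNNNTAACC, in which N is any base. It lay 70 to 56 bases before the Abca1 start and was found in 18 of 33469 promoter windows of 300 bases, or 0.0538%. The sterol regulatory element core TCACCCCA lay 156 to 149 bases before the Srebf2 start and was found in 1.37% of windows. The E-box CACGTG lay 149 to 144 bases before the Abca1 start and was found in 6.42% of windows. Of the 8 genes, 6 had a window in the table, and each motif was found in 1 of them. Each motif was searched as 1 narrow string, and other forms of the same element were not searched. The shares therefore describe these strings, not how common the elements are. A window without a match may still hold such an element. These matches describe letters in the window and were not tested as binding sites.

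The deposited counts are UMIs, each standing for 1 captured RNA molecule. The libraries held 75823418 to 105605297 of them over all barcodes. After filtering, 33666 cells were kept, 6034 to 9835 per library, with median depths of 2092.5 to 8005 UMIs per cell. Clustering gave 31 clusters, which were named from marker genes in 8 classes except for 4 that stayed unnamed. The 8 genes were left out of the clustering and of the marker lists. A class is called macrophage-like, for example, because its clusters expressed macrophage markers. Of the 13 markers, 7 in cluster 25 and 8 in cluster 26 met the rule for naming clusters. All 13 had at least 1 UMI in the macrophage-like cells of each library. The larger dendritic-like cluster, 28, scored 2.47 on the dendritic and 2.16 on the macrophage markers, as a mean log2 over the median cluster. The library called uninjected 1 stood apart, with 17.07% of its UMIs from ribosomal protein genes against 7.15% to 8.6% in the other libraries. It also had only 55 macrophage-like cells, against 378 to 703 elsewhere. Most differences of the 8 genes between injected and uninjected libraries are therefore also given without it. Pairs of libraries shared 14 to 27 cell barcodes. The UMIs of all cells of a class in a library were summed, and levels are given as UMIs per 1000000 UMIs of that sum (CPM), with library sizes scaled by the TMM method within a class. Levels of single clusters and of summed marker lists are CPM without that scaling. Levels were compared between cell classes or libraries for 1 gene at a time, not between genes. They were not scaled by TMM between classes, so the order of classes can differ from the tests below. An example is Hmgcs1 in macrophage-like and neutrophil-like cells.

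Macrophage-like cells held the highest Abca1, Apoe and Nr1h3 means of the 8 classes and the lowest Srebf2 mean. Abca1 was at 1034.8 CPM ± 236.8 (SD, n = 4 libraries) in macrophage-like cells, and its lowest library there, at 725 CPM, was above every library of the next class. That class was endothelial-like cells, at 376.5 CPM ± 139.8 (SD, n = 4). The remaining classes, from fibroblast-like to mast-like cells, had Abca1 means between 8.55 and 98.6 CPM, and each one's range overlapped the next. Apoe was at 19484 CPM ± 5008 (SD, n = 4) in macrophage-like and 13874 CPM ± 3791 (SD, n = 4) in keratinocyte-like cells, with overlapping ranges. Mast-like cells came next for Apoe, at 1338 CPM, but a single cell held 397 of the 492 UMIs of injected 2 and another 65 of the 142 of uninjected 2. T and NK-like cells, which hold T cells and natural killer cells, came last at 229.7 CPM. Droplets also hold free RNA from broken cells, which was estimated from keratin UMIs in cells that are not keratinocytes. The Apoe expected from it came to 48.4% to 110.7% of the Apoe UMIs in T and NK-like, dendritic-like and neutrophil-like cells and to 27.8% to 157.5% in mast-like cells, so Apoe in these classes is largely at the level of background. In macrophage-like cells it came to 1.0% to 1.3%.

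Nr1h3 was sparse, with 87 UMIs in all macrophage-like cells and a mean of 9.23 CPM ± 9.47 (SD, n = 4). Fibroblast-like cells followed with 234 UMIs and 4.16 CPM ± 1.27 (SD, n = 4), within the macrophage-like range. No Nr1h3 UMI was found in T and NK-like cells of any library. Mylip had another order, with dendritic-like cells highest at 1030.8 CPM ± 83.9 (SD, n = 4) and above every library of the next class. Neutrophil-like cells at 590.6 CPM ± 233.3 (SD, n = 4) and macrophage-like cells at 505.8 CPM ± 74.1 (SD, n = 4) followed and overlapped. All other classes were at 142.1 CPM or less for Mylip. Abcg1 was highest in T and NK-like cells, at 62.3 CPM ± 12.6 (SD, n = 4), then mast-like cells at 47.6 CPM and macrophage-like cells at 38.6 CPM ± 6.71 (SD, n = 4). These neighbours overlapped, and the other classes were below the macrophage-like range.

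Srebf2 and Hmgcs1 were highest in keratinocyte-like and dendritic-like cells. Srebf2 was at 122.1 CPM ± 6.26 (SD, n = 4) in keratinocyte-like, 93.5 CPM ± 19.2 (SD, n = 4) in dendritic-like and 23.8 CPM ± 3.18 (SD, n = 4) in macrophage-like cells, where it was lowest. The macrophage-like range overlapped those of mast-like and neutrophil-like cells. Hmgcs1 was at 140.9 CPM ± 29.9 (SD, n = 4) in keratinocyte-like cells and 139.9 CPM ± 13.3 (SD, n = 4) in dendritic-like cells, and lowest in neutrophil-like cells at 34.8 CPM ± 4.22 (SD, n = 4). Lpl was highest in fibroblast-like cells, at 180.9 CPM ± 79.1 (SD, n = 4), and macrophage-like cells came next at 53.3 CPM ± 37.1 (SD, n = 4), with overlapping ranges. The other 6 classes had Lpl means of 10.8 CPM or less.

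**Figure D1:**
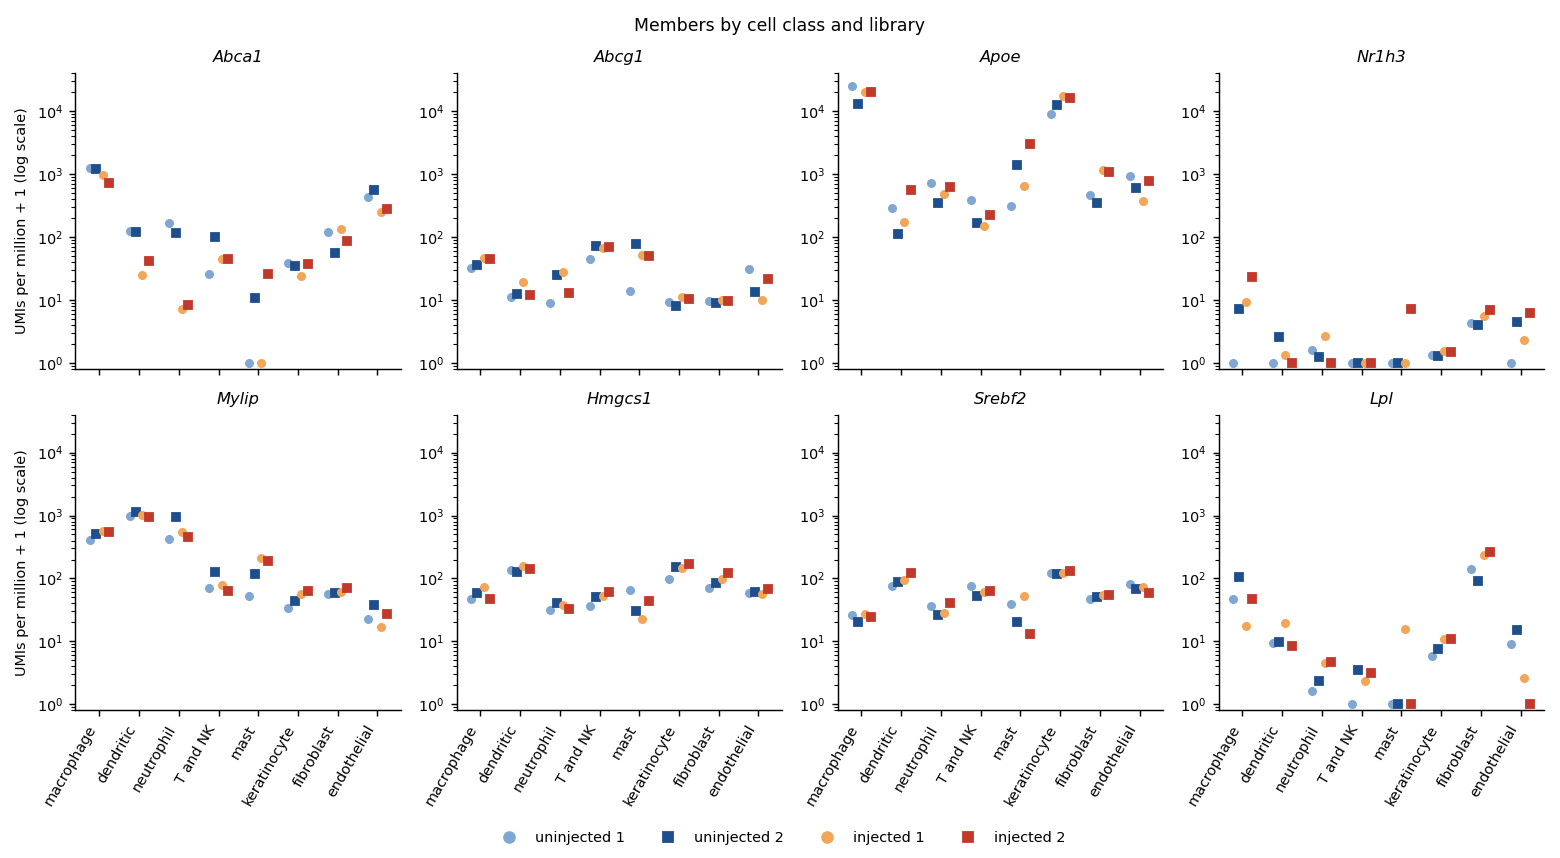
Level of each gene by cell class (x axis) in CPM + 1 on a log scale (y axis), with 1 point per library. Macrophage-like cells were highest for Abca1, between 725 and 1251.5 CPM, and dendritic-like cells for Mylip, between 954 and 1146 CPM. In neutrophil-like cells the 2 injected Abca1 points, at 6.13 and 7.38 CPM, lie far below the 2 uninjected ones.

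Because the classes were made without these genes, levels in macrophage-like cells were tested against each of 5 other classes within libraries. The test was edgeR's quasi-likelihood test on the summed UMIs with the library as a block and Benjamini-Hochberg adjustment over all genes tested. Scaling matters here, since classes differ in RNA composition. TMM sets the typical gene to no difference. The log2 values under TMM minus those under total UMIs came to 0.83 against T and NK-like, 0.27 against dendritic-like, 0.38 against fibroblast-like, 0.41 against keratinocyte-like and −1.33 against neutrophil-like cells. The share of calls that were higher in macrophage-like cells went from 51.5% to 24% against T and NK-like cells, from 53.1% to 38.7% against dendritic-like cells, from 45.8% to 30.9% against fibroblast-like cells, from 44.9% to 30.5% against keratinocyte-like cells and from 52.7% to 84.5% against neutrophil-like cells.

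Against T and NK-like cells 5 of 7 tested genes of the set were higher in macrophage-like cells and 1 was lower, where 32.8% of all 8837 genes were higher and 30.8% lower. Against dendritic-like cells 4 of 7 were higher and 3 lower, where 29.0% of all genes were higher and 25.7% lower. Against fibroblast-like cells 5 of 8 were higher and 2 lower, where the background was 28.2% higher and 33.4% lower. Against keratinocyte-like cells 6 of 8 were higher and 2 lower, where it was 26.6% higher and 32.6% lower. Against neutrophil-like cells 3 of 7 were higher and 3 lower, where it was 34.0% higher and 30.5% lower. With total UMIs as the scaling the last contrast became 5 higher (Abca1, Abcg1, Apoe, Hmgcs1 and Lpl) and 0 lower, and the one against T and NK-like cells became 4 higher and 2 lower. Under both scalings the higher counts against T and NK-like and neutrophil-like cells include Lpl. It had 9 and 32 UMIs in all in those classes, so its call there was fixed in advance. Most of all genes passed in each of these contrasts, so the set is described by its genes rather than by its counts. Nr1h3 did not pass the filter on low counts against T and NK-like, dendritic-like and neutrophil-like cells and was not tested there. Against keratinocyte-like cells it passed that filter only through its macrophage-like UMIs. Its place among the 6 higher genes of that contrast is therefore not read as a result.

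Abca1 was higher in macrophage-like cells in all 5 contrasts and in all 4 libraries of each. The log2 difference was 5.05 (SE 0.28) over T and NK-like, 4.21 (SE 0.32) over dendritic-like, 3.72 (SE 0.24) over fibroblast-like and 5.27 (SE 0.23) over keratinocyte-like cells. It was 3.45 (SE 0.63) over neutrophil-like cells, the contrast with the largest error and the largest adjusted p for this gene, 0.000356 by edgeR. With total UMIs as the scaling the 5 values lay between 3.42 and 4.97. The value over neutrophil-like cells pools unlike libraries. Neutrophil-like Abca1 was at 167 and 116 CPM in the uninjected and at 6.13 and 7.38 CPM in the injected libraries. Apoe was also higher in all 5 contrasts, by a log2 of 0.78 (SE 0.21, edgeR adjusted p = 0.00118) over keratinocyte-like and 3.86 to 7.22 over the other classes. Over keratinocyte-like cells the value fell to 0.47 under total UMIs (edgeR adjusted p = 0.0125), and without the library block the call was lost (edgeR adjusted p = 0.063). Nr1h3 was higher than in fibroblast-like cells by a log2 of 1.57 (SE 0.35, edgeR adjusted p = 0.000543), in 3 of 4 libraries. Its log2 over keratinocyte-like cells was 4.88 (SE 0.44), also in 3 of 4 libraries. Keratinocyte-like cells had 74 Nr1h3 UMIs in all. The gene passed the filter on low counts in that contrast only through its macrophage-like UMIs, so this value is given as a description. In both contrasts the exception was uninjected 1, with 0 UMIs in its 55 macrophage-like cells.

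Srebf2, the regulator of synthesis, was lower in macrophage-like cells in all 5 contrasts and in all 4 libraries of each. The log2 difference was −2.05 (SE 0.21) against keratinocyte-like, −1.83 (SE 0.19) against dendritic-like, −1.71 (SE 0.22) against neutrophil-like, −0.80 (SE 0.21) against fibroblast-like and −0.59 (SE 0.20) against T and NK-like cells. The smallest of these was the least firm, with an edgeR adjusted p of 0.0205, which became 0.301 with doublets kept and 0.0901 and 0.0793 without uninjected 2 or injected 2. Against fibroblast-like cells the adjusted p became 0.126 with doublets kept. Against neutrophil-like cells it became 0.17 under total UMIs, with a log2 of −0.37. Hmgcs1 was lower than in dendritic-like cells by a log2 of −1.09 (SE 0.17, edgeR adjusted p = 0.000157) and than in keratinocyte-like cells by −1.05 (SE 0.20, edgeR adjusted p = 1.99e-05), in 4 of 4 libraries each. Against the other classes its call depended on the scaling. It went from −0.64 to 0.70 against neutrophil-like cells, from 0.92 to 0.09 against T and NK-like cells, and from −0.44 (not past the threshold) to −0.81 (past it) against fibroblast-like cells.

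Mylip was higher in macrophage-like than in fibroblast-like, keratinocyte-like and T and NK-like cells, by log2 values of 3.35 (SE 0.20), 3.71 (SE 0.20) and 3.38 (SE 0.23). It was lower than in dendritic-like cells by −0.82 (SE 0.16, edgeR adjusted p = 0.000867), in 4 of 4 libraries. Against neutrophil-like cells Mylip was at −1.48 under TMM and −0.16 under total UMIs, and under the latter it no longer passed. Abcg1 was higher than in dendritic-like, fibroblast-like and keratinocyte-like cells by log2 values of 1.83 (SE 0.21), 2.54 (SE 0.22) and 2.52 (SE 0.22). Its sign depended on the scaling against T and NK-like cells (0.05, or −0.79 under total UMIs) and against neutrophil-like cells (−0.23, or 1.13). Lpl was lower than in fibroblast-like cells by a log2 of −1.63 (SE 0.41, edgeR adjusted p = 0.00162), in 3 of 4 libraries. It was higher than in the other 4 classes by 2.32 to 5.48. In T and NK-like and neutrophil-like cells Lpl had 9 and 32 UMIs in all, so it entered those tests through its macrophage-like UMIs and had to come out higher.

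The macrophage-like class consisted of cluster 26, with 70.8% to 94.3% of its cells per library, and cluster 25. Cluster 26 was led by Spp1 and Pf4, and cluster 25 by Lyz2, Il1b and Cd14. Apoe was at 28012 and 14165 CPM in cluster 26 of the uninjected libraries and at 24617 and 20861 in the injected ones. In cluster 25 it was at 10633 and 9170 in the uninjected libraries and at 4070 and 3324 in the injected ones. Apoe was thus lower in cluster 25 in each of the 4 libraries. Abca1 went the other way, at 1967, 2121, 930.3 and 1359 CPM in cluster 25 against 1240, 1201, 852 and 632 in cluster 26 (uninjected 1 and 2, then injected 1 and 2). Lpl lay almost wholly in cluster 26, with 9, 222, 46 and 96 UMIs in these libraries against 0, 0, 3 and 4 in cluster 25. Cluster 25 of uninjected 1 held only 6 cells, and its 37 Abca1 UMIs and 200 Apoe UMIs are the base of its values. The complement genes C1qa, C1qb and C1qc, which mark many tissue macrophages, did not separate the clusters by a like margin in all libraries. C1qa, for example, was at 106, 657, 227 and 269.7 CPM in cluster 25 and at 144, 182, 219.7 and 275 in cluster 26.

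**Figure D2:**
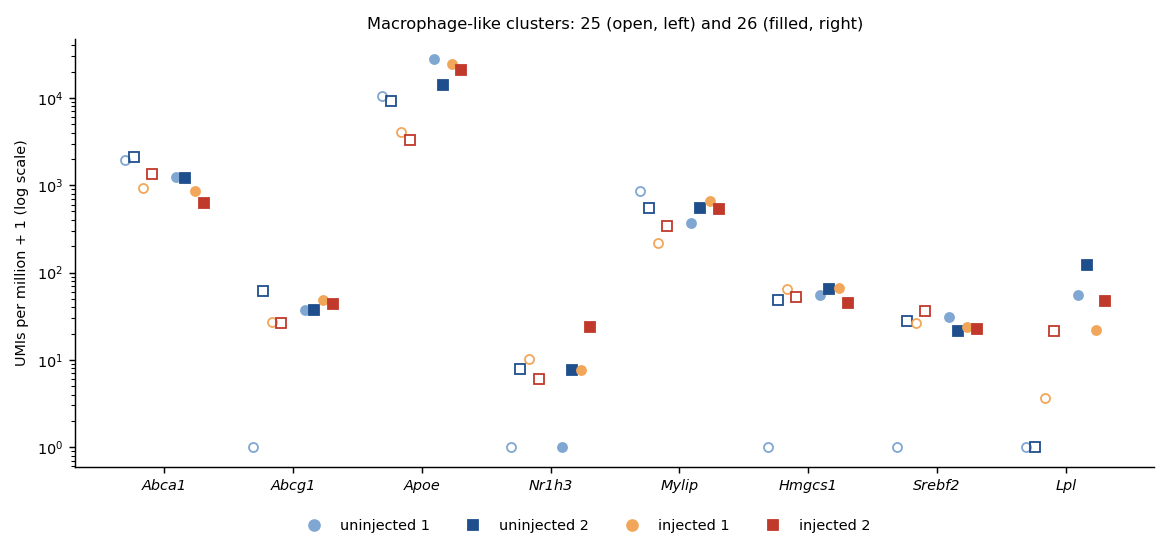
Level of each gene in the 2 macrophage-like clusters, 25 (open symbols) and 26 (filled symbols), in CPM + 1 on a log scale (y axis), with 1 symbol per library. Apoe was lower and Abca1 higher in cluster 25 than in cluster 26 in each of the 4 libraries, with Apoe in cluster 25 between 3324 and 10633.

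In the injected against uninjected comparison the count of genes of the set whose libraries did not overlap is given beside the share of all tested genes that did the same. In fibroblast-like cells both injected libraries were above both uninjected ones for 7 of 8 genes and below for 0 (background 21.4% above and 20.5% below). In keratinocyte-like cells they were above for 5 of 8 and below for 0 (18.7% and 17.6%). In macrophage-like cells they were above for 3 of 8 and below for 2 (20.4% and 18.0%). In dendritic-like cells they were above for 2 and below for 1 of 7 that passed the filter (19.6% and 18.3%). In neutrophil-like cells they were above for 1 and below for 1 of 7 (20.2% and 21.5%). In T and NK-like cells they were above for 1 and below for 0 of 6 (22.6% and 22.0%). Since the genes were picked on this comparison, nothing is read from these counts. Total UMIs in place of TMM moved the fibroblast-like count from 7 to 4 (Abcg1, Mylip and Srebf2 then overlapped) and the keratinocyte-like count from 5 to 7 (Hmgcs1 and Srebf2 joined). It changed 1 gene each in macrophage-like (Mylip), T and NK-like (Srebf2) and neutrophil-like cells (Hmgcs1) and none in dendritic-like cells. The median log2 over all genes then went from −0.01 to 0.18 in T and NK-like, from 0.02 to −0.18 in macrophage-like, from −0.05 to −0.18 in neutrophil-like, from 0.01 to 0.16 in keratinocyte-like, from 0.00 to 0.125 in dendritic-like and from 0.00 to −0.02 in fibroblast-like cells.

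The largest fitted difference among the 8 genes and 6 classes was that of Abca1 in neutrophil-like cells. Abca1 was at 167 and 116 CPM in the neutrophil-like cells of uninjected 1 and 2 and at 6.13 and 7.38 CPM in those of injected 1 and 2. These values rest on 834 and 504 UMIs in the uninjected and on 29 and 12 UMIs in the injected libraries. The groups did not overlap, with means of 141.2 CPM ± 36.0 (SD, n = 2) uninjected and 6.76 CPM ± 0.885 (SD, n = 2) injected. The fitted level was 21.1-fold higher in the uninjected libraries, a log2 difference of −4.40, and −4.13 without uninjected 1. It lay between −5.46 and −4.13 over the 13 alternatives run. Single uninjected neutrophil-like cells held up to 23 and 16 Abca1 UMIs, at median depths of 1044.5 and 1445 UMIs per cell. In the injected libraries the highest cell held 9 and 2, at median depths of 1372 and 1367.

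The neutrophil-like class is made up of clusters 6, 7, 8, 9, 11 and 12, and the libraries filled them unequally. Cluster 6 held 47.9% of the neutrophil-like cells of uninjected 1, cluster 12 held 42.8% of those of uninjected 2, and cluster 11 held 36.2% and 56.9% of those of injected 1 and 2. In all 6 clusters both injected libraries were below both uninjected ones. In cluster 11 Abca1 was at 405 and 241.5 CPM in the uninjected libraries and at 9.5 and 9.3 in the injected ones. Cluster 9 had the lowest uninjected values, at 73.3 and 71.3, against 1.7 and 4.0. Cluster 10, which scored for neutrophil markers but stayed unnamed, had Abca1 at 423 and 166 CPM in the uninjected and at 5.4 and 1.7 in the injected libraries. Some clusters held few injected cells. Cluster 6 had 40 and 52, with 0 Abca1 UMIs in either.

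Other measures of the neutrophil-like cells are given here, and their part in the Abca1 difference was not tested. The summed level of the 10 neutrophil markers was 25406 and 12069 CPM in the uninjected and 7960 and 9144 CPM in the injected libraries. The groups did not overlap. The summed level of the 13 macrophage markers was 541 and 846 CPM in the uninjected and 596 and 478 CPM in the injected libraries, so the groups overlapped. Free RNA accounted for an expected 2.4% and 4.5% of the Abca1 UMIs in the uninjected libraries. It accounted for 62.6% and 27.8% of the few in the injected ones.

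Abca1 was lower in the injected libraries in dendritic-like and macrophage-like cells as well. In dendritic-like cells it was at 125.0 and 119 CPM in the uninjected and at 23.9 and 41.0 CPM in the injected libraries, a log2 difference of −1.91, or −1.88 without uninjected 1. Both dendritic-like clusters had injected libraries below uninjected ones. In cluster 30 the values were 66.8 and 108 CPM uninjected against 4.0 and 4.0 injected, and in cluster 28 they were 131 and 134 against 37.5 and 78.0. The 13 macrophage markers summed to 1063 and 979 CPM in uninjected and to 1372 and 1497 CPM in injected dendritic-like cells. The part of macrophage RNA in the Abca1 difference was not tested. In macrophage-like cells Abca1 was at 1251.5 and 1183 CPM in the uninjected and at 980.0 and 725 CPM in the injected libraries. The groups did not overlap, the log2 difference was −0.51, and it was −0.47 without uninjected 1. In the 3 remaining classes of the fit the libraries overlapped. Abca1 was at 24.7 and 99 against 43.2 and 43.4 CPM in T and NK-like cells, at 37.6 and 33.6 against 22.7 and 36.7 CPM in keratinocyte-like cells, and at 121 and 54.5 against 133 and 85.5 CPM in fibroblast-like cells (uninjected against injected).

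**Figure D3:**
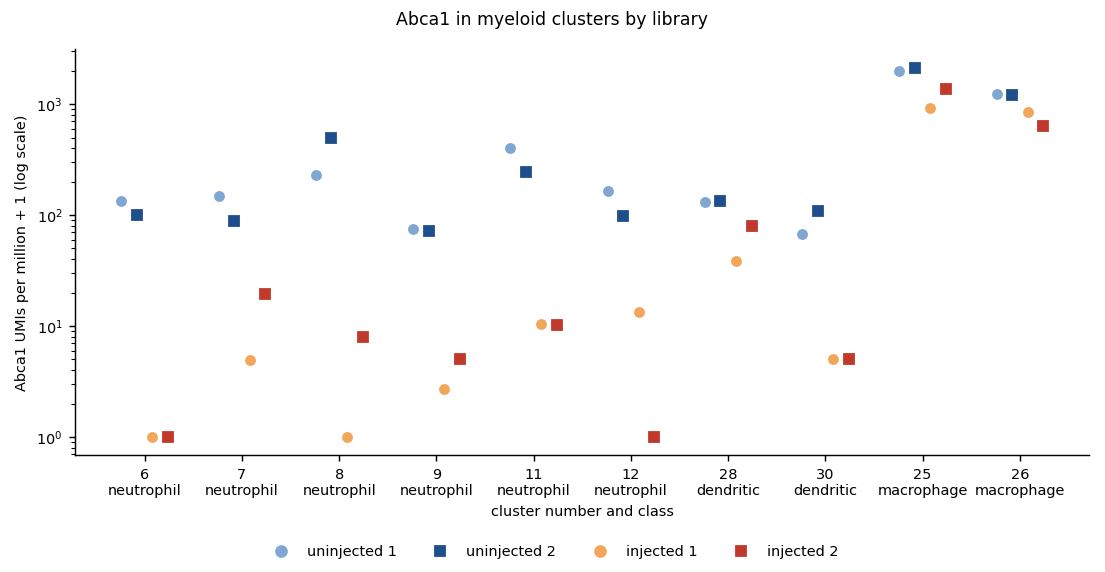
Abca1 in CPM + 1 on a log scale (y axis) in each neutrophil-like, dendritic-like and macrophage-like cluster (x axis), with 1 point per library. In each of these 10 clusters both injected points lie below both uninjected points, with uninjected points between 66.8 and 2121 and injected points of the neutrophil-like clusters at 18.3 or less.

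Apoe went the other way in the 2 structural classes of the skin. In fibroblast-like cells it was at 470.2 and 339.7 CPM in the uninjected and at 1148 and 1083 CPM in the injected libraries. The means were 404.9 CPM ± 92.3 (SD, n = 2) and 1115.7 CPM ± 46.1 (SD, n = 2), and the groups did not overlap. The fitted level was 2.76-fold higher in the injected libraries, a log2 difference of 1.46, or 1.70 without uninjected 1. The fibroblast-like class consists of clusters 18, 19 and 29, which the libraries again filled unequally. Cluster 19 held 49.2% and 69.4% of the uninjected fibroblast-like cells, and cluster 29 held 59.6% of those of injected 1. Within each of these clusters both injected libraries were above both uninjected ones. Apoe was at 801 and 1011 against 2693 and 1806 CPM in cluster 18, at 242 and 203 against 372 and 389 in cluster 19, and at 507 and 776 against 1042 and 938 in cluster 29. Free RNA was expected to give 19.2% and 19.7% of the Apoe UMIs in the uninjected and 9.9% and 15.9% in the injected libraries. With it removed the log2 difference was 1.58. The 13 macrophage markers summed to 204 and 271 CPM in uninjected and 283 and 346 CPM in injected fibroblast-like cells. The part of macrophage RNA in the Apoe difference was not tested.

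In keratinocyte-like cells Apoe was at 9117 and 12574 CPM in the uninjected and at 17379 and 16427 CPM in the injected libraries, a log2 difference of 0.64, or 0.43 without uninjected 1. Both injected libraries were above both uninjected ones in 8 of 10 keratinocyte-like clusters. The exceptions were clusters 2 and 13. In cluster 2 injected 1, at 12643 CPM, lay below uninjected 2, at 13712. The macrophage markers summed to 235 and 370.0 CPM in uninjected and 439.8 and 425 CPM in injected keratinocyte-like cells, and the part of macrophage RNA was not tested. In macrophage-like cells, where the gene is highest, the Apoe libraries overlapped, at 25015 and 12851 against 19888 and 20181 CPM. The log2 difference there was 0.08, or 0.65 without uninjected 1. In neutrophil-like, dendritic-like and T and NK-like cells they overlapped too. Abcg1, the partner transporter, was at 30.8 and 35.4 CPM in uninjected and 45.3 and 43.0 CPM in injected macrophage-like cells. Its log2 difference was 0.37 (0.32 without uninjected 1, 0.16 under total UMIs). In keratinocyte-like cells it was at 8.14 and 7.12 against 10.1 and 9.39 CPM, a log2 of 0.35 (0.46 without uninjected 1). In the other 4 classes Abcg1 differed by 0.40 or less on the log2 scale.

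The LXRα gene Nr1h3 was at 3.32 and 3.03 CPM in uninjected and 4.49 and 5.81 CPM in injected fibroblast-like cells, from 20 to 85 UMIs. The log2 difference was 0.70, or 0.75 without uninjected 1. In macrophage-like cells it was at 0 and 6.14 CPM in the uninjected and at 8.39 and 22.4 CPM in the injected libraries. The 0 of uninjected 1 is compatible with up to 15.2 CPM (3 UMIs, counting error only), which is above uninjected 2 and injected 1. Nr1h3 is among the 3 macrophage-like genes counted above without overlap, but whether the groups separate could not be told at this depth. In keratinocyte-like cells Nr1h3 was low in all libraries, at 0.307 and 0.276 CPM in the uninjected and at 0.561 and 0.491 CPM in the injected ones, from 13 to 24 UMIs each. The groups did not overlap, and the log2 difference was 0.85, or 0.93 without uninjected 1. Mylip was at 33.0 and 42.5 CPM in uninjected and 55.5 and 61.6 CPM in injected keratinocyte-like cells, a log2 difference of 0.63, or 0.47 without uninjected 1. Its other non-overlapping differences were small, at 0.27 in macrophage-like cells (0.11 without uninjected 1) and 0.19 in fibroblast-like cells (0.16). By cluster, without TMM scaling, the injected libraries were lower without overlap in 1 of 2 macrophage-like clusters and higher in 0. They were lower in 1 and higher in 1 of 3 fibroblast-like clusters, and higher in 7 and lower in 0 of 10 keratinocyte-like clusters. In dendritic-like cells, where Mylip is highest, it was at 987 and 1146 against 1036 and 954 CPM. In neutrophil-like cells it was at 427 and 932.5 against 545 and 458 CPM, and the groups overlapped in both.

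Hmgcs1 and Srebf2, of the synthesis side, were higher in some injected classes. Hmgcs1 was at 68.7 and 85.0 CPM in uninjected and at 98.6 and 121 CPM in injected fibroblast-like cells, a log2 difference of 0.51, or 0.36 without uninjected 1. In dendritic-like cells it was at 135 and 126 against 157 and 142 CPM, a log2 of 0.20 (0.24 without uninjected 1). In T and NK-like cells it was at 35.7 and 50.2 against 51.0 and 59.6 CPM, where uninjected 2 and injected 1 lay almost together and the log2 of 0.29 was 0.13 without uninjected 1. In keratinocyte-like cells the Hmgcs1 libraries overlapped, and the log2 of 0.33 was 0.05 without uninjected 1. Srebf2 differed most in dendritic-like cells, at 73.8 and 86.4 against 94.6 and 119 CPM, a log2 of 0.40 (0.30 without uninjected 1). In the other classes Srebf2 differed by 0.28 or less on the log2 scale. Scaling by total UMIs turned the sign of 5 differences of the set, namely Apoe and Srebf2 in neutrophil-like, Apoe and Hmgcs1 in macrophage-like and Mylip in dendritic-like cells. All 5 had overlapping libraries.

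Lpl was higher in the injected fibroblast-like cells, the class with most of its UMIs. It was at 142 and 89.6 CPM in the uninjected and at 231 and 261 CPM in the injected libraries, a fitted 2.13-fold difference and a log2 of 1.09, or 1.44 without uninjected 1. By cluster, the injected libraries were above the uninjected ones in cluster 18 (295 and 208 against 538 and 419 CPM) and cluster 19 (35.6 and 51.1 against 60.3 and 102). In cluster 29 they overlapped, at 221 and 272 against 214.5 and 233. In macrophage-like cells Lpl was at 46.2 and 104.9 CPM in the uninjected and at 16.4 and 45.7 CPM in the injected libraries, a log2 of −1.45, or −1.77 without uninjected 1. The groups barely separate, since uninjected 1 has 9 UMIs and lies next to injected 2. In uninjected 2 a single cell held 131 of the 222 UMIs. In keratinocyte-like cells Lpl was at 4.77 and 6.58 against 9.78 and 9.99 CPM, a log2 of 0.80 (0.59 without uninjected 1). In neutrophil-like cells the injected libraries were above the uninjected ones too, but from 3 to 17 UMIs each, a log2 of 1.87, or 1.37 without uninjected 1. The Lpl expected there from free RNA came to 58.7% to 231.9% of those UMIs, which is the level of background.

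**Figure D4:**
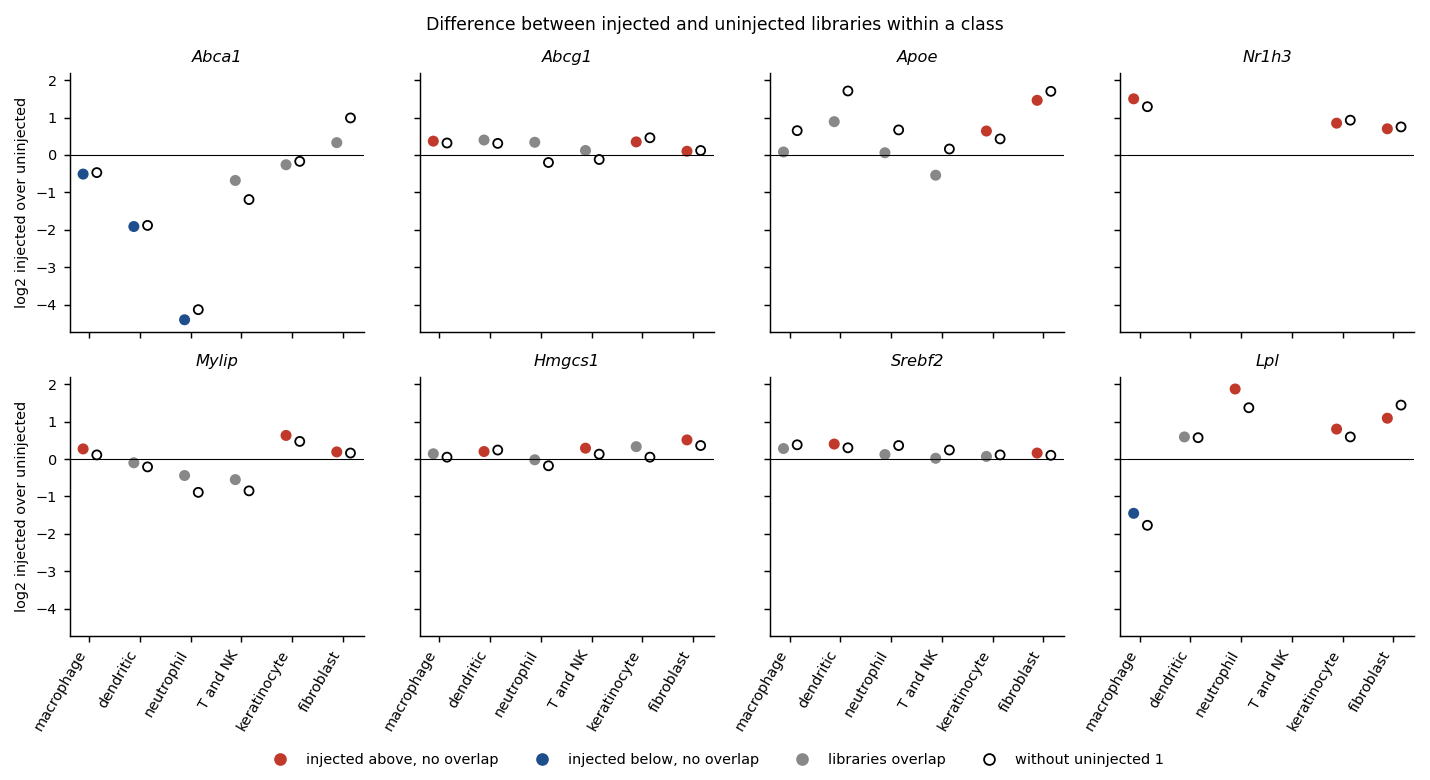
Fitted log2 difference, injected over uninjected, of each gene (panels) by cell class (x axis), with all 4 libraries (filled) and without uninjected 1 (open). Colour shows whether the 2 injected libraries lay above, below or among the 2 uninjected ones. Abca1 in neutrophil-like cells, at −4.40, lies farthest from 0. Points are absent where a gene did not pass the filter on low counts.

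The other genes of the pathway came from 4 lists that hold none of the 8 genes, with 80 genes in all and 75 tested in at least 1 class. By edgeR's quasi-likelihood test, 0 of 360 tests of a list gene in a class passed an adjusted p of 0.05 in either direction, and 27 had an unadjusted p under 0.05 (7.5%, against 7.22% of all tests). By DESeq2 2 passed. The smallest edgeR adjusted p was 0.133. Over all genes and the 6 classes, 7 of 62158 tests passed, or 0.0113%. Of these 6 were in fibroblast-like and 1 in macrophage-like cells. Leaving out a library leaves 1 in its group, with its spread assumed equal to that of the other group. The number of list tests past the threshold then moved with the library left out and is not read as a result.

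The list of sterol synthesis, sensing and uptake, which Srebf2 governs, had one-sided values in fibroblast-like and, to a like extent, in dendritic-like cells. In fibroblast-like cells 21 of 27 genes had a log2 above 0, with a median of 0.22 against 0.00 for all genes, and none passed the test. Both injected libraries were above both uninjected ones for 13 of them and below for 3, where 21.4% of all genes were above and 20.5% below. Among the largest were Insig2 at 1.06 (SE 0.29) and Insig1 at 0.96 (SE 0.24, edgeR adjusted p = 0.321), which were 0.84 and 0.81 without uninjected 1. The Insig proteins hold SREBP2 back in the endoplasmic reticulum. Insig1 was at 60.1 and 74.0 CPM in the uninjected and at 145 and 117 CPM in the injected libraries. In dendritic-like cells 17 of 23 genes of this list were above 0, with a median of 0.24. Of these 23, both injected libraries were above both uninjected ones for 11 and below for 2 (19.6% and 18.3% of all genes). In keratinocyte-like cells 16 of 26 were above 0, with a median of 0.09. Among them in keratinocyte-like cells were Insig2 at 0.56 and Insig1 at 0.53, which were 0.21 and 0.19 without uninjected 1. In macrophage-like cells 14 of 22 were above 0, with a median of 0.14, and Stard4 at −0.82 and Insig2 at 0.72 were among the largest. Without uninjected 2 these were 0.20 and 0.18. In uninjected 1 they had only 2 and 4 UMIs.

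Of the efflux and LXR-linked list, Smpdl3a, a phosphodiesterase that LXR is known to induce, had the smallest adjusted p. It was at 14.3 and 14.8 CPM in uninjected and 37.5 and 41.9 CPM in injected fibroblast-like cells, a log2 of 1.45 (SE 0.21, edgeR adjusted p = 0.133). By DESeq2 this difference passed (adjusted p = 0.000838). The log2 lay between 1.37 and 1.52 with each library left out. In macrophage-like cells Smpdl3a was at 928 and 1289 against 1813 and 2666.5 CPM, a log2 of 1.01 (edgeR adjusted p = 0.927). Ch25h, which makes 25-hydroxycholesterol, was at 0.97 in fibroblast-like cells and at 1.45 in keratinocyte-like cells. The latter passed by DESeq2 (adjusted p = 0.00466) and not by edgeR (0.834). Others with large values were Rxra at −1.22 and the phospholipid enzyme Lpcat3 at 0.98 in macrophage-like cells, Apod at −1.37 and Apoc2 at −1.10 in keratinocyte-like cells, and Apod at −0.76 in fibroblast-like cells. Macrophage-like Rxra rested on only 2 to 17 UMIs per library. Fibroblast-like Apod rested on uninjected 1, at 175 CPM against 6.44 in uninjected 2, and was 3.03 without it. Keratinocyte-like Apoc2 rested on the same library, at 5.15 CPM against 1.05 to 1.58 in the others, and was 0.46 without it, and keratinocyte-like Apod was −0.72 without it. The medians of this list were 0.19 in macrophage-like, 0.04 in fibroblast-like, 0.10 in keratinocyte-like and −0.30 in neutrophil-like cells.

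Fatty acid synthesis had medians of −0.47 in dendritic-like (2 of 7 genes above 0), −0.34 in T and NK-like (1 of 5), −0.32 in neutrophil-like (1 of 6), −0.10 in fibroblast-like, −0.03 in keratinocyte-like and 0.02 in macrophage-like cells. In the last 3 of these classes its largest values were Scd2 at −0.66, Me1 at −0.50 and Fads2 at −0.37 in fibroblast-like cells, Acaca at −0.75, Scd2 at 0.55 and Me1 at 0.23 in macrophage-like cells, and Acsl3 at −0.33, Fads2 at 0.32 and Gpam at −0.26 in keratinocyte-like cells. Fibroblast-like Fads2 and macrophage-like Me1 turned sign without uninjected 1, to 0.04 and −0.05, and macrophage-like Acaca was −0.19 without injected 2. Macrophage-like Acaca and Me1 had only 2 and 3 UMIs in uninjected 1. Lipid uptake, storage and lipolysis had medians of 0.35 in macrophage-like cells, 0.01 in fibroblast-like, keratinocyte-like and neutrophil-like cells, −0.16 in dendritic-like and −0.37 in T and NK-like cells. In macrophage-like cells Plin2, which coats lipid droplets, was at 1072 and 1037.5 CPM in the uninjected and at 2871 and 1863 CPM in the injected libraries, a log2 of 1.17 (SE 0.40, edgeR adjusted p = 0.927). Sort1 was at −1.36 and Lrpap1 at 1.14 there, the latter 0.21 without injected 2. Macrophage-like Sort1 rested on only 3 to 18 UMIs per library. In fibroblast-like cells the scavenger receptors Msr1 and Olr1 were at 1.30 (0.61 without injected 1) and −1.28 and Sort1 at −0.99. Olr1 there again rested on uninjected 1, at 117 CPM against 7.41, and was 1.75 without it. In keratinocyte-like cells Hilpda, which acts on lipid droplets, was at −2.03, Angptl4, an inhibitor of lipoprotein lipase, at 1.08 and Pparg at 1.04. Each of these 3 rested on 1 library. Hilpda was at 9.3 CPM in uninjected 1 against 1.31 to 1.77 elsewhere and at −0.39 without it. Angptl4 was at 172.4 CPM in injected 1 against 47.7 to 67.8 elsewhere and at 0.26 without it. Pparg was at 3.66 CPM in injected 2 against 1.16 to 1.31 elsewhere and at 0.13 without it. None of these passed the test with all 4 libraries.

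**Figure D5:**
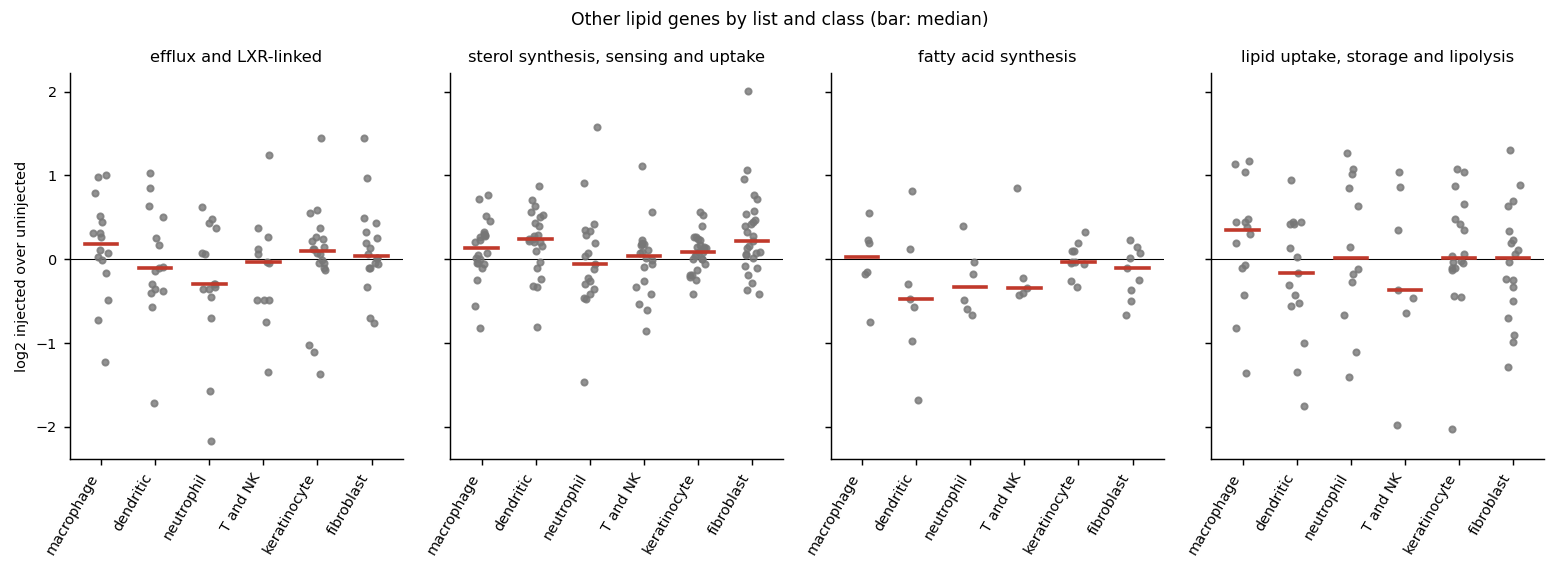
Fitted log2 difference, injected over uninjected, of the other lipid genes in 4 lists (panels) by cell class (x axis), with 1 point per gene and a bar at the median. The medians lie between −0.47 and 0.35, and no gene passed an edgeR adjusted p of 0.05.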

How the data were processed

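Groups came from the titles and treatment labels of the 4 libraries. The deposited values are UMI counts per gene and barcode, with empty droplets included. Cell Ranger 7.2.0 made the count matrices per the file headers, whereas 5.0.1 is its version per the submitters' processing notes. For genome build and annotation the entry is "not given in the sources used here". The 8 genes and all lists were chosen with earlier results of these data known. The Leiden resolution and the naming thresholds were set after the clusters were seen.

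A barcode counted as a cell if it exceeded the 99th percentile among the 3000 largest, divided by 10. Smaller barcodes of at least 500 UMIs were added if they differed from the pooled profile at barcode ranks 45000 to 90000 in 1000 multinomial draws at a false discovery rate of 0.01. Kept cells had at least 250 genes and at most 20% mitochondrial UMIs. Scrublet scores removed 323 to 926 likely doublets per library, at 0.8% for every 1000 cells. Clustering used scanpy 1.11.5 and igraph 0.11.9 (Leiden resolution 2, 15 neighbours, 30 components) on 2000 variable genes that excluded the 8 genes and the pathway lists. Libraries were not integrated. Cluster names required 3 or more markers of the highest-scoring class, each in 20% of cells and 2-fold above the median cluster. Clusters whose 10 leading genes went against the name, or shallow ones led by no own marker, were left unnamed.

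UMIs were summed per class and library for the 6 classes with 50 or more cells in every library. These sums were tested with edgeR 4.0.16 in R 4.3.3 (quasi-likelihood, TMM, filterByExpr, adjusted p under 0.05), with the library as a block in class contrasts. Standard errors came from the F statistic. Pathway genes were named where they passed the threshold, or were among the 3 largest differences of a list in macrophage-like, fibroblast-like or keratinocyte-like cells. Likeness was Pearson's r of log2(CPM + 1), and the 3 highest genes were named. Some genes that these rules name are not reported here. Free RNA was estimated from empty droplets and from genes of other cells. In simulated data with 200 genes changed by a log2 of 2 in each comparison, 93.5% to 100% of them were recovered with 3 to 12 false calls. Alternatives were DESeq2 1.42.0, no filter, a replicate block, each library left out, doublets kept, at most 10% mitochondrial UMIs, clustering with lipid genes, no library block and free RNA removed. Crossed replicate numbers and total UMIs as scaling were chosen after seeing the data.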

Additional observations from a re-analysis of the deposited data

Results flagged for a closer look

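Lpl, injected over uninjected, went in opposite directions in different classes, in both injected libraries against both uninjected ones. The log2 difference was 1.09 in fibroblast-like, 0.80 in keratinocyte-like and 1.87 in neutrophil-like cells and −1.45 in macrophage-like cells. The difference between classes was not tested. The neutrophil-like value rests on 3 to 17 UMIs per library, which is the level of background from free RNA given above. The macrophage-like value rests on 9 UMIs in uninjected 1 and on 222 in uninjected 2, of which a single cell held 131. The groups barely separate there, with uninjected 1 at 46.2 CPM and injected 2 at 45.7 CPM.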

How the results depend on the processing

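With 2 libraries a group, the number of genes past the threshold for injection moved most with the processing. It was 7 over 6 classes, 287 by DESeq2, 1611 with no filter, 12 with total UMIs as scaling, and 0 to 4031 with each library left out, the highest without uninjected 2 and 718 without uninjected 1. For the pathway lists it was 0, 2 by DESeq2, 9 with no filter and 0 to 16 with each library left out. The cause was not tested. The number of the 8 genes called in a class contrast, both directions together, stayed within 1.5 times under the alternatives run. By direction, the contrast with neutrophil-like cells went from 3 higher and 3 lower to 5 and 0 with total UMIs as scaling. The 1 lower gene against T and NK-like cells became 2 with that scaling and 0 with doublets kept, without uninjected 2 or without injected 2, and the 2 lower against fibroblast-like cells became 1 with doublets kept. Signs reversed for 3 class contrasts with total UMIs as scaling (Abcg1 at −0.79 against T and NK-like and 1.13 against neutrophil-like cells, Hmgcs1 at 0.70 against neutrophil-like cells) and for fibroblast-like Apod and Olr1 without uninjected 1, their values ranging from −1.72 to 3.03 and from −2.21 to 1.75 with each library left out. Over all combinations of class contrast and alternative, a call was lost in 10 of 407 and gained in 6. The replicate numbers share no stated animal or day, and deviations of libraries with the same number correlated between −0.169 and −0.004. With the replicate number as a block 4 genes and 0 pathway genes passed, and with the numbers crossed 40 and 0. Depth limits Nr1h3 in all classes and the macrophage-like cells of uninjected 1.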

Other observations

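Endothelial-like and mast-like cells had fewer than 50 cells in at least 1 library and entered no fit. In endothelial-like cells Abca1 was at 425 and 552 CPM in the uninjected and at 250.1 and 279 CPM in the injected libraries, from 108 to 769 UMIs, so both injected libraries were lower there too. Apoe in these cells was at 914 and 597 against 371 and 761 CPM, and the groups overlapped. In mast-like cells Abca1 had 0 to 4 UMIs per library.

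Genes whose levels followed each of the 8 most closely over the 24 sums of class and library are given as a description, since the sums share libraries, depths and cell classes. They were Npc2, Spp1 and AABR07036007.1 for Abca1 (Pearson's r 0.80, 0.79 and 0.79), Sytl3, Casp1 and Ccpg1 for Abcg1 (0.89, 0.88 and 0.88), and Klf10, Slc7a8 and Capg for Apoe (0.88, 0.86 and 0.85). For Nr1h3 they were Fuca1, P4hb and Nucb2 (0.83, 0.81 and 0.81), for Mylip Ncf4, Plscr1 and Napsa (0.99, 0.96 and 0.95) and for Lpl Plod3, Uap1 and Lgals3bp (0.94, 0.92 and 0.90). For Hmgcs1 they were Dlgap4, Csrp1 and Siah2 (0.93, 0.90 and 0.90) and for Srebf2 they included Cd24 and Ppp1cb (0.90 and 0.89). Among the 8 genes themselves the highest r was 0.73, between Hmgcs1 and Srebf2, followed by 0.69 between Nr1h3 and Lpl and 0.53 between Abca1 and Nr1h3. The lowest was −0.57, between Abca1 and Srebf2.

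Of 61 other pathway genes with a promoter window, Acsl3 held the LXR element and none the sterol regulatory element core. The E-box was found in 7 of them, namely Insig1, Mgll, Nceh1, Plin2, Sc5d, Scap and Smpdl3a.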
